A study of Mus musculus with 2 samples.

Results

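Among the 1040 mouse microRNA (miRNA) probes of an array used on embryonic ureteric bud cells, 5 bright probes carry names whose miRNA origin is doubtful. They are mmu-miR-709, mmu-miR-690, mmu-miR-720, mmu-miR-1937a and mmu-miR-1937b (the mouse prefix mmu is left out below), and they were chosen by name and because they were bright in these samples. Their brightness is therefore described here without a test. The RNA came from a single group of 2 samples of E15.5 mouse kidney, with cells sorted by yellow fluorescence. All embryos carried the Rosa26YFP reporter together with Hoxb7Cre, a recombinase line that marks the ureteric bud, the branching epithelium that forms the collecting ducts. Cy3 was the dye of replicate 1 and Cy5 that of replicate 2, so a dye effect and a difference between the samples cannot be told apart. A comparison group was not analysed here. The labels do not say whether the 2 samples came from separate litters or preparations.

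A canonical miRNA is cut by Drosha and Dicer from a hairpin and is loaded into an Argonaute protein, which it guides through its seed, bases 2 to 8. Other small RNAs can be caught by the same array, since the probes recognise sequence and not the way an RNA was made. Transfer RNAs (tRNAs) are one such source: an enzyme adds CCA to the end of every mature tRNA, and fragments that keep this end have entered miRNA collections. The name miR-720 is a known case, later traced to a threonine tRNA, and miR-1937a and miR-1937b are likewise counted as tRNA-like. Repeats are another source. The miR-709 sequence resembles a stretch of B1, a short interspersed element present in very many copies in rodent genomes, although mouse miR-709 has also been described as a nuclear regulator of miR-15a and miR-16-1 processing.

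The target sequences on the array are shown because they separate the 5 names into 3 kinds. They run 5′ to 3′ as given in the scanner tables, with the seed in capitals.
miR-709: gGAGGCAGaggcaggagga
miR-690: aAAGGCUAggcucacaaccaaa
miR-720: aUCUCGCUggggccucca
miR-1937a: aAUCCCGGacgagccccca
miR-1937b: aUCCCGGAcgagccccca
miR-1937c: aUCCCGGAagagccccca
The last of them, miR-1937c, is no member of the set and is shown because it shares its seed with miR-1937b. The seeds of miR-709, miR-690, miR-720 and miR-1937a occurred on no other miRNA probe of the array. The targets of miR-720, miR-1937a and miR-1937b end in CCA, the sequence at the end of mature tRNAs. The target of miR-709 holds 11 G, 6 A, 2 C and 0 U. Only miR-690 had a mature sequence in RefSeq (build GRCm38.p6), which was identical to its array target. Gene entries were found for miR-709, within the span of Rfx1, and for miR-690, within the span of Fgf12. The names miR-720, miR-1937a and miR-1937b matched 0 gene symbols or synonyms.

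The arrays held 3968 spots, of which 3120 belonged to miRNA probes in 3 repeats each and 560 were blank. Blank spots averaged 203.9 ± 33.1 raw intensity units (SD, n = 560 spots) in replicate 1 and 58.9 ± 7.42 in replicate 2. The detection limit, set at 3 SD over the blank mean, was 303.2 units in replicate 1 and 81.1 in replicate 2, and detection required that 50% or more of a probe's spots lie over it. In all, 62 miRNA probes (5.96%) passed in both samples, 82 (7.88%) in replicate 1 and 64 (6.15%) in replicate 2. Of 5 epithelial miRNAs of the miR-200 family, 3 passed in both, with miR-200c at 2110 units in replicate 1 and at 759.5 in replicate 2. The family members miR-141 (207.9 and 54.0 units) and miR-200a (238.7 and 51.9 units) lay below the limits. Of 18 miRNAs that mark blood, endothelium, muscle, nerve or mesenchyme, 0 passed in both samples, and the mesenchymal miR-214 passed in replicate 2 only. A count of 0 of 18 does not set these markers apart from the 5.96% over all miRNA probes. The limit of replicate 1 rests in part on 1 blank spot of 916.8 units. Without that spot it would be 243.5 units, 133 miRNA probes would pass in replicate 1 and 64 in both samples, and miR-214 (281.0 and 88.0 units) would be among the latter.

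The brightest miRNA probe of both arrays was that of miR-709. Its 3 spots read 19832, 18322 and 18954 units in replicate 1, against 6005, 6518 and 6751 in replicate 2. The median spot was 62.5 times the detection limit in replicate 1 and 80.3 times in replicate 2. The next brightest miRNA probe was miR-149*, at 2536 units, in replicate 1 and miR-341*, at 2217 units, in replicate 2. The scanner was not at its ceiling for miR-709, since the brightest calibration spot reached 55692 and 55983 units. The miR-709 spots lay between 10.7% and 35.6% of those values.

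Spots printed beside miR-709 were dark. The 24 neighbours of its 3 spots on the grid read 195.3 to 238.3 units in replicate 1 and 47.5 to 76.6 in replicate 2, all below the limits. With the median blank subtracted, miR-709 gave 32.1% of the summed signal of the 62 detected miRNA probes in replicate 1 and 34.0% in replicate 2. All 5 members together gave 37.6% and 37.9%. These are shares of fluorescence and not of molecules, because probes differ in affinity. Leaving out miR-709 moved the ratio of the summed signals, replicate 1 over replicate 2, from 3.08 to 3.16.

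The probe of miR-690 read 1078, 972.7 and 944.8 units in replicate 1, against 206.1, 195.4 and 224.5 in replicate 2. It took rank 20 and rank 25 among the miRNA probes. In each array its spots overlapped in value with those of the next brighter and the next dimmer probe, which were miR-133b* and let-7a in replicate 1 and miR-320 and miR-200b in replicate 2. Its place in the order is therefore not sharper than the spread of repeat spots.

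The tRNA-like probes were of similar brightness to miR-690. The miR-720 spots read 833.0, 739.5 and 794.8 units in replicate 1, against 258.0, 265.1 and 208.3 in replicate 2, for ranks 31 and 21. The miR-1937a spots read 861.9, 935.6 and 844.8 units in replicate 1, against 186.4, 174.7 and 209.5 in replicate 2, for rank 27 in both arrays. The miR-1937b spots read 1187, 1390 and 1376 units in replicate 1, against 292.8, 311.5 and 344.0 in replicate 2, for ranks 11 and 17. All 15 member spots of each array exceeded its limit, so the set was detected in full in both samples, against 5.96% of all miRNA probes. As the members were picked as bright probes, nothing is read from that contrast.

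**Figure D1:**
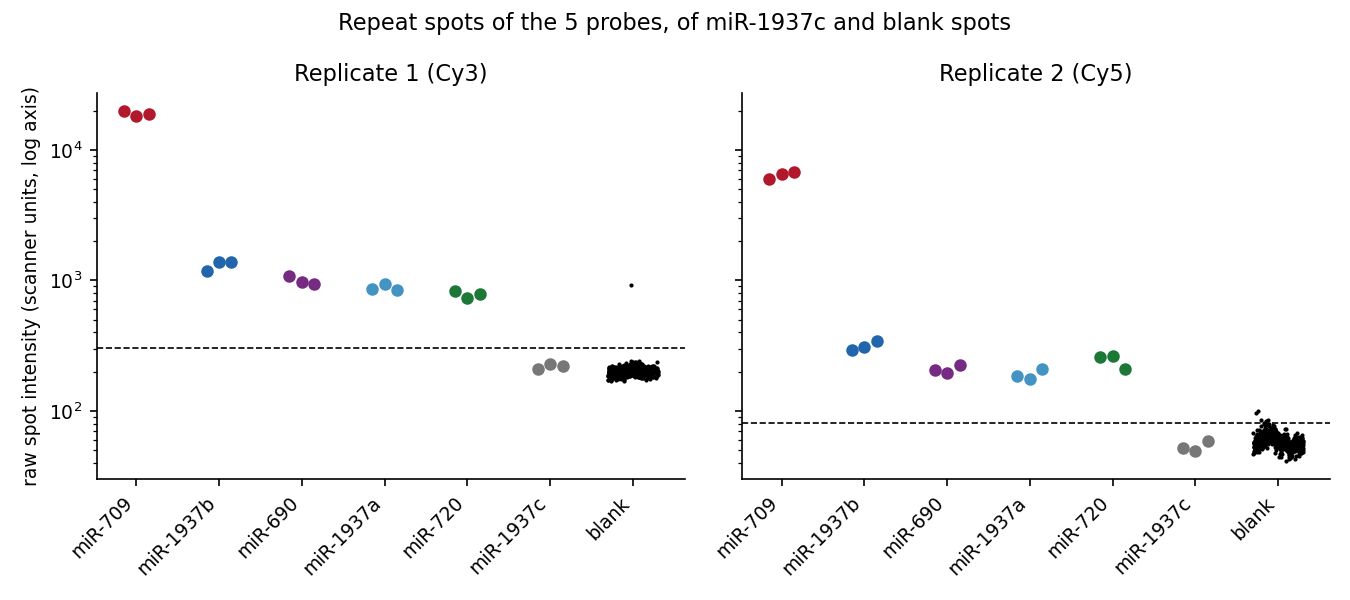
Raw intensity (log axis) of the 3 repeat spots of each probe, beside the 560 blank spots, with the detection limit dashed. All spots of the 5 members lie above the limit in both samples, while the miR-1937c spots lie among the blank spots. In replicate 1, 1 blank spot stands apart, at 916.8 units.

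**Figure D2:**
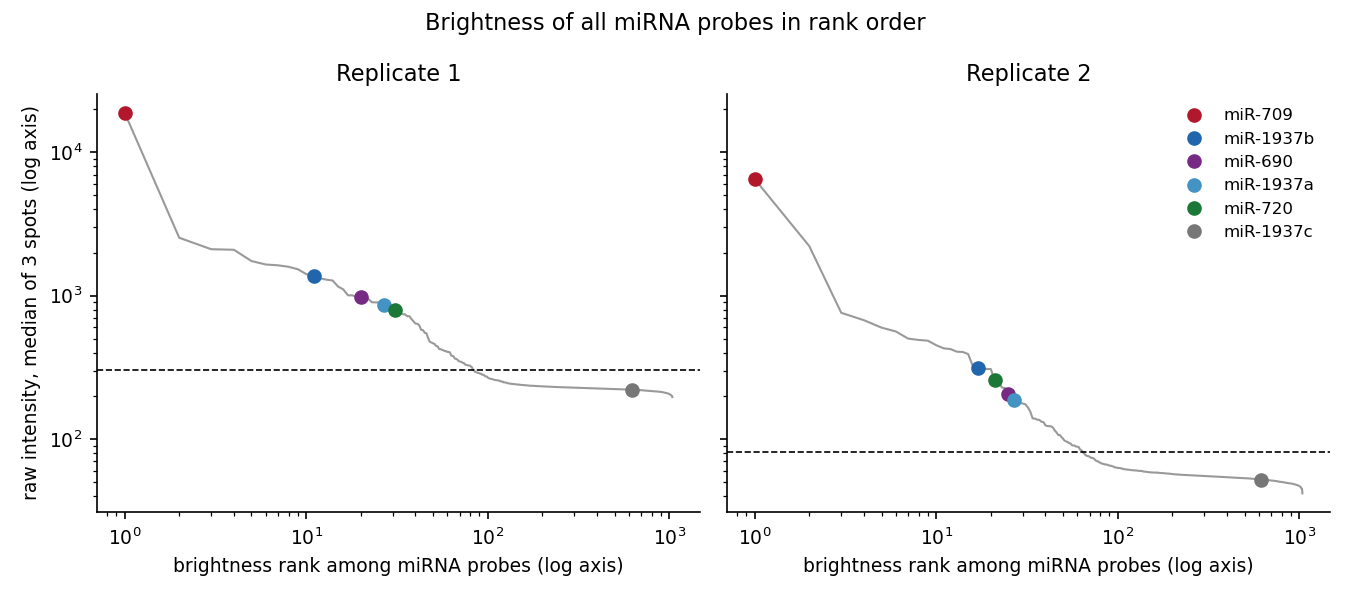
Median raw intensity against brightness rank for the 1040 miRNA probes of each array (both axes log), with the detection limit dashed. The probe of miR-709 stands at rank 1 in both arrays, the other 4 members between rank 11 and rank 31, and miR-1937c at ranks 621 and 617.

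A change of 1 base separated a bright target from a dark one. The targets of miR-1937b and miR-1937c have 18 bases and differ at 1 of them, C9A (the miR-1937b base, the position from the 5′ end, then the miR-1937c base). They are repeated here with that base in capitals.
miR-1937b: aucccggaCgagccccca
miR-1937c: aucccggaAgagccccca
The miR-1937c spots read 211.4, 230.2 and 221.0 units in replicate 1, against 52.1, 49.9 and 59.4 in replicate 2. All of them lay below the limits, at ranks 621 and 617, close to the median miRNA probe (222.9 and 53.1 units). The spots of both probes do not overlap in either array. The miR-1937c spots were printed next to those of miR-1937b in every repeat block, and so shared their position on the array. The miR-1937c target was below what this background allows to be detected, and its absence from the cells is not shown.

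The targets of miR-1937a and miR-1937b are the same but for 1 added A at the 5′ end of miR-1937a. Every spot of miR-1937a was dimmer than every spot of miR-1937b on the same array, up to 935.6 against at least 1187 units in replicate 1 and up to 209.5 against at least 292.8 in replicate 2. An RNA of either form can bind both probes, so they are not independent measurements. The target of miR-375* shares the stretch of 10 bases gacgagcccc with both, and it read 236.6 and 54.8 units, below the limits.

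The same was examined for miR-709. Its longest stretch in common with any other miRNA target was 10 bases, in miR-1935, shown here with that stretch in capitals.
miR-709: ggAGGCAGAGGCaggagga
miR-1935: AGGCAGAGGCuggcggaucucu
The miR-1935 probe read 199.9 and 51.8 units, ranks 1034 and 664, among the dimmest on the array in replicate 1. For miR-720 the longest common stretch was 9 bases with miR-762, whose probe was detected at 807.3 and 124.4 units. Targets shared no more than 7 bases in a row with miR-690.

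How often each sequence recurs was gauged in RefSeq promoter windows (GRCm38.p6), which are only a part of the genome, since no whole genome was used here. Of 32851 windows of 300 bases, 49 (0.149%) held at least 1 stretch of 14 bases from the miR-709 target on either strand. The median over all 1040 targets was 1 window, the 90th percentile was 5, and miR-709 ranked 12. The miR-690 target was found in 4 windows, that of miR-720 in 1, and those of miR-1937a and miR-1937b in 0. Shorter targets offer fewer stretches of 14 bases, and the counts were not adjusted for length. A CCA end added by an enzyme need not be in the gene, so stretches that reach it may find no match. The low counts of the tRNA-like targets therefore do not show how often they recur in the genome. Of the 11 targets found in more windows, 3 were detected in both samples (miR-466i-5p, miR-574-5p and miR-669p*), 4 in replicate 1 only and 4 in neither. The last of these groups included miR-3473, with 95 windows at 227.4 units in replicate 1, while miR-466i-5p, with 231 windows, stood at 1318 units. Over all 1040 miRNA probes, 5.96% were detected in both samples and 7.88% in replicate 1, lower shares than among these 11. These targets were picked after their values were seen, and a link between recurrence and brightness was not tested. A match is a description of the letters and says nothing on the source of the hybridised RNA.

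The RefSeq precursor of miR-690 lies at chr16:28599935-28600043 on the minus strand (GRCm38.p6), and the mature sequence at chr16:28599940-28599961. It is shown with the mature sequence, bases 83 to 104, in capitals.
Mir690: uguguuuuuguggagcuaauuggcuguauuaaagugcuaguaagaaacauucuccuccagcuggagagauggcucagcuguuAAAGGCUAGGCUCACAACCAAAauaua
Folded with RNAfold, it gave a branched structure with 3 terminal loops, where 950 of 1005 RefSeq mouse miRNA precursors (94.5%) had 1, the single hairpin that Drosha and Dicer act on. Only 15 (1.49%), Mir690 among them, had 3 or more. Its predicted free energy was -29.0 kcal/mol over 109 bases, or -0.27 kcal/mol per base against a median of -0.41, and 5.57% of precursors had a weaker value per base. Of the 22 mature bases, 15 (68.2%) were paired, against a median of 81.8% for the better-paired arm of all precursors. Taking the better arm raises that median where both arms are annotated. Of 991 precursors with a mature arm, 71 (7.16%) had a lower value than that of miR-690. These are predictions from sequence and describe RefSeq's boundaries of the precursor. The median precursor had 79 bases, fewer than the 109 of Mir690. Whether length alone accounts for the loops or the energy per base was not tested. How miR-690 is made cannot be read from the fold.

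A second array target matches this precursor over nearly all its length. Bases 62 to 78 are also found in miR-3473, as 17 of its 18 bases, in capitals below.
miR-3473: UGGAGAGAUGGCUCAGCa
The miR-3473 probe read 227.4 units in replicate 1 and 66.3 in replicate 2, below both limits. The targets of miR-1968 (231.5 and 48.1 units) and miR-1968* (229.0 and 50.4 units) share 10 bases with the precursor, and their probes also lay below the limits. Of the array targets that match this precursor over all or nearly all their length, miR-690 was detected and miR-3473 was not. This pair was chosen after its values were seen.

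The targets of the set are short. Those of miR-720 and miR-1937b have 18 bases, those of miR-709 and miR-1937a 19 and that of miR-690 22, whereas the median of all miRNA targets was 22. Targets of 19 bases or fewer made up 3.08% of the array (32 of 1040), and 4 of these 32 are members. Of the remaining 28, miR-2861 and miR-466h-3p were detected in both samples, against 57 of all 1035 probes outside the set (5.51%). The 11 other targets of 18 bases or fewer reached at most 231.4 units in replicate 1 and 66.3 in replicate 2, all below the limits. Counts this small do not set the other short targets apart from the share over all probes outside the set. The G and C content was 68.4% for miR-709 and miR-1937a, 72.2% for miR-1937b and 66.7% for miR-720, against a median of 47.8% over the array. With 45.5%, miR-690 was close to that median.

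**Figure D3:**
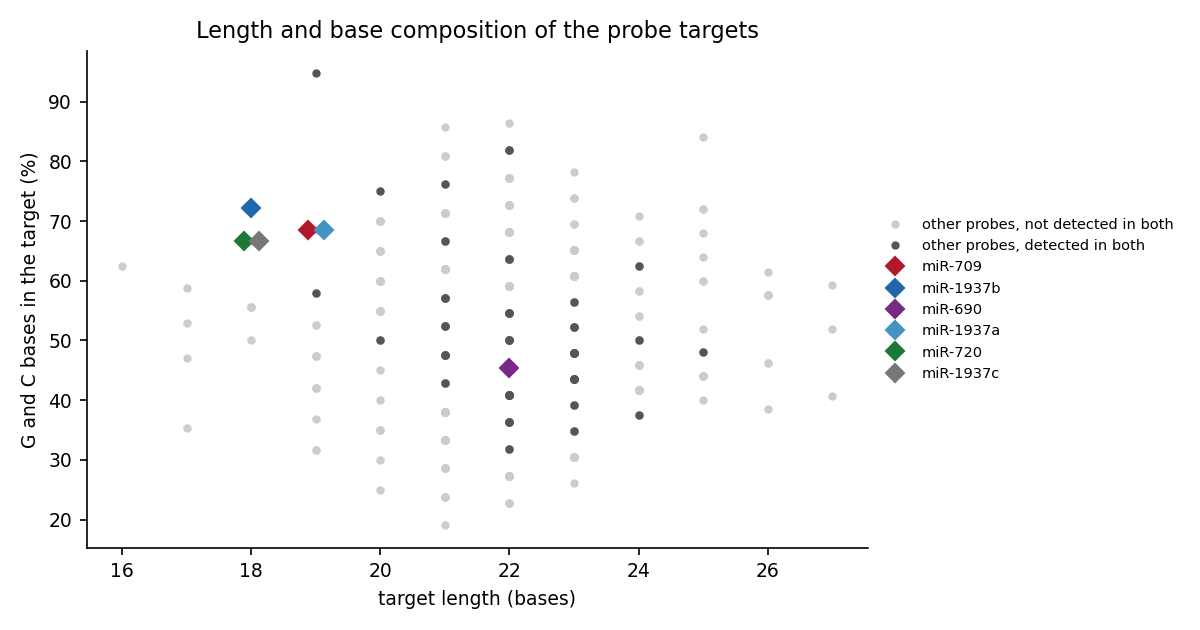
Length of each probe's target in bases against its share of G and C bases, for the 5 members, miR-1937c and the other miRNA probes, many of which coincide. The members other than miR-690 lie at 18 or 19 bases and at 66.7% to 72.2% G and C, and miR-1937c lies at the same point as miR-720 (members at the same point are shifted sideways so as to be seen).

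Other targets with a CCA end were dark. Of 19 miRNA targets that end in CCA, miR-720, miR-1937a and miR-1937b were detected (3 of 19, 15.8%, against 5.96% of all probes). As these 3 are members, picked as bright probes, nothing is read from that share. The other 16 were detected in neither sample, at 215.5 to 240.9 units in replicate 1 and 50.1 to 60.5 in replicate 2. Of all 1035 miRNA probes outside the set, 57 (5.51%) were detected in both samples. With so few CCA targets, 0 of 16 does not set them apart from that share. Names of like number were examined too. Of 50 probes named miR-676 to miR-721, a run that holds miR-690, miR-709 and miR-720, 4 were detected in both samples (8%, against 5.96% of all probes). As 3 of these 4 are members, picked as bright probes, nothing is read from that share. Outside the set, 1 of 47 was detected in both samples, too few to set this run apart from the 5.51% of all probes outside the set. It was miR-705, at 720.3 and 131.3 units, and the other 46 were detected in neither. With the limit of 243.5 units 3 of these 46 would pass in replicate 1 alone.

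Bright spots printed nearby were also examined. In each repeat block miR-690 and miR-720 sit beside calibration spots of 38483 to 42562 units in replicate 1. The remaining 21 neighbours of miR-690 stayed below the limits, at up to 286.3 units in replicate 1 and 70.7 in replicate 2, although 6 of them would exceed the lower limit of 243.5 units in replicate 1. Among the remaining 18 neighbours of miR-720, the spots above a limit were those of miR-574-5p and, in replicate 1, 1 spot of miR-574-3p. Over the whole array, undetected miRNA spots beside calibration spots above 10000 units had a median of 221.3 units (168 spots), against 222.9 for the other 2700 in replicate 1. In replicate 2 the medians were 53.1 and 52.7 units.

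Probes for 5S ribosomal RNA, a small RNA that is certainly not a miRNA, were bright on the same arrays. The 5 sequences lay between 1135 and 12010 units in replicate 1, and between 253.2 and 4039 in replicate 2. Set among the miRNA probes, the brightest of them would stand at rank 2 in both arrays, after miR-709. The RNA had been limited to molecules shorter than 300 nt, per the labels' protocols, a range that includes tRNAs and 5S RNA, before a poly(A) tail was added.

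The 2 samples were then compared for each member. After background correction and quantile normalization, log2 signals were 13.44 for miR-709 in both samples, because it held rank 1 in both. An SD of 0 there comes from the normalization and is no measure of precision. The others had log2 signals of 9.34 ± 0.32 for miR-1937b (SD, n = 2), 8.79 ± 0.18 for miR-690, 8.64 ± 0.35 for miR-720 and 8.57 ± 0.02 for miR-1937a. The difference, replicate 1 minus replicate 2, was 0.45 for miR-1937b, 0.25 for miR-690, 0.03 for miR-1937a and -0.49 for miR-720. Over the 62 detected probes it ranged from -1.16 to 1.42, with a median of -0.20 and a SD of 0.54.

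Relative to that median, miR-720 was the member on the side of replicate 2, at -0.29, and miR-1937b was at 0.65, miR-690 at 0.45 and miR-1937a at 0.23. No such value is given here for miR-709, as its rank fixes its quantile-normalized difference at 0. In raw intensity less the median blank, the ratio of replicate 1 to replicate 2 was 2.90 for miR-709, 2.96 for miR-720, 4.63 for miR-1937b, 5.15 for miR-1937a and 5.21 for miR-690, against a median of 3.74 and quartiles of 2.98 and 5.40. The lowest ratio of the set was that of miR-709, also below the lower quartile. Its side of the median depended on the processing, however. Without normalization between arrays, miR-709 lay 0.095 above the median log2 difference of the detected probes, and with cyclic loess 0.37 above it. The tRNA-like names did not move as a unit: miR-720 stood just below the lower quartile and both miR-1937 probes between the median and the upper quartile. With 1 sample per dye none of these differences can be tested, and those of the members lay within the SD over the detected probes, except that of miR-1937b relative to the median.

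**Figure D4:**
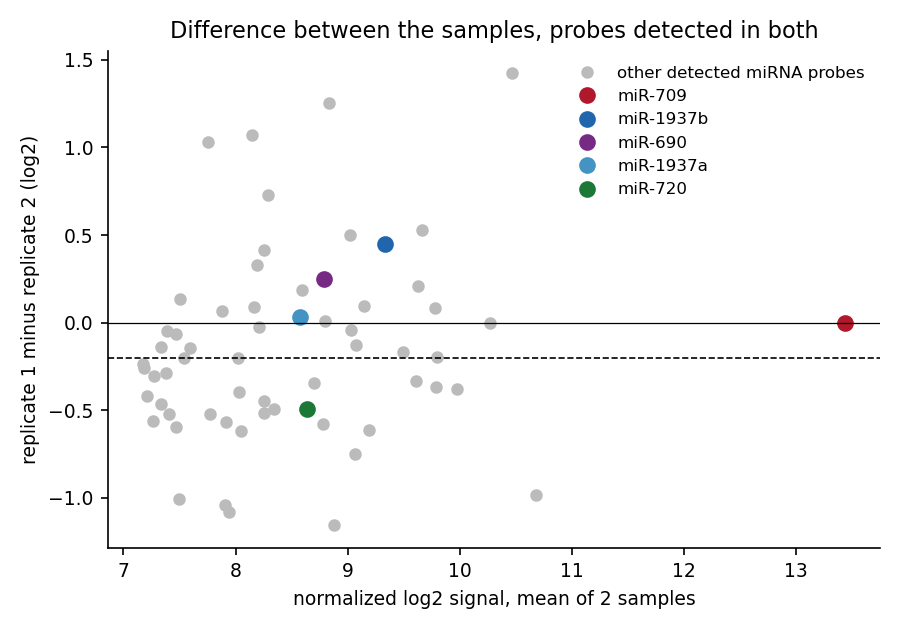
Normalized log2 signal (mean of the 2 samples) against the difference between the samples for the 62 detected miRNA probes, with the median difference of -0.20 dashed. The members lie from -0.49 (miR-720) to 0.45 (miR-1937b), inside the range of the other probes.

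In the authors' deposited table of processed values, miR-709 stood at 43317 and 25657, miR-1937b at 2239 and 1831, miR-690 at 1566 and 1152, miR-1937a at 1212 and 1022, and miR-720 at 1012 and 1383. In the same table miR-1937c had 15 and 18. The columns have medians of 10 and 9, and how they were scaled is not given in the sources used here. Against the raw intensities less blank, the table's values were a median of 1.66 times as high in replicate 1 and 7.998 times in replicate 2. The direction between the samples matched the normalized values for the 4 members whose difference was not 0, with miR-720 alone higher in replicate 2. In this table the ratio of replicate 1 to replicate 2 had a median of 0.85 over the detected probes. It was 1.69 for miR-709, 1.36 for miR-690, 1.22 for miR-1937b, 1.19 for miR-1937a and 0.73 for miR-720.

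Repeat spots of the members scattered like those of other detected probes. The coefficient of variation between repeat spots, after subtraction of the median blank, ran from 4.03% (miR-709) to 10.1% (miR-1937b) in replicate 1 and from 5.99% (miR-709) to 16.7% (miR-720) in replicate 2. The medians over the 62 detected probes were 8.09% and 11.8%. Within a spot, on raw intensity without blank subtraction, miR-709 had a coefficient of variation of 1.53% in replicate 1, the lowest of the 62. As miR-709 was also the brightest miRNA probe, nothing is read from that value.

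In their pair of raw values the members other than miR-709 had close companions among established miRNAs. The nearest in log2 intensity over the 2 samples was miR-24 for miR-720 (distance 0.09), miR-191 for miR-1937a (0.09), miR-93 for miR-690 (0.16) and miR-20a for miR-1937b (0.31). The nearest to miR-709 was miR-341*, at a distance of 3.54.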

How the data were processed

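For each sample the authors deposited the mean and standard deviation of every spot's intensity, per the file headers. The intensities carry background, since blank spots lie well above 0. The arrays were run by LC Sciences from 4 µg of total RNA per the labels' protocols. The scanner is not given in the sources used here. The 5 members and all lists were chosen with earlier results of these data known.

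Detection used raw intensities and the blank spots of each array. For log2 signals, intensities were corrected with normexp (offset 50, all spots), quantile-normalized (miRNA spots only) and summarised as medians of 3 repeats, in R 4.3.3 with limma 3.58.1. Precursors were folded with RNAfold 2.7.2. Other steps used Python 3.11.15. No test was run: there is 1 group of 2 samples, and the members were chosen for brightness. The number of samples limits the precision. Whether the samples were run on separate arrays or as 2 dye channels of 1 array is not established here, and the word array is used for either. Named probes were the members, miR-1937c, detected probes of the lists, the longest shared target, neighbours in rank, the brightest 3 and the nearest pattern. The probes of miR-3473, miR-1968 and miR-1968*, the recurrent targets and the short targets were chosen after values were seen. Detection and normalization were tested on simulated data. Alternatives changed the limit, the repeats, the background correction and the normalization.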

Additional observations from a re-analysis of the deposited data

How the results depend on the processing

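All 5 members were detected in both samples under each of 9 alternatives: blank limits of 6 and 10 SD, the 95th percentile, a median-based limit, the dimmest miRNA spots as background, all repeat spots required, the limit without the brightest blank spot, and either sample alone, where the count without a replicate stayed at 5. All miRNA probes detected ranged from 33 to 102 under these. The difference of miR-720, -0.49, turned to 1.33 without normalization and to 0.63 with a shift to a common median. There the detected probes had a median difference of 1.43 and 0.74. Relative to that median, an alternative chosen after seeing the data, miR-720 was below 0, at -0.10 to -0.40, and miR-690, miR-1937a and miR-1937b were above 0 under all 7 alternatives. For miR-709, rank 1 in both arrays fixes the quantile-normalized difference at 0, so its sign there is no result. Where rank did not fix it, miR-709 lay above the median of the detected probes. It was at 0.095 without normalization or with the common shift, and at 0.37 with cyclic loess. Its ratio after blank subtraction, without normalization, lay below the median, so its side is unsettled. The log2 signal of miR-720 was 8.27 with blank subtraction. That of miR-709 was 13.43 to 13.44 throughout, which is no measure of stability. For a probe at rank 1 in both arrays, quantile normalization and the common shift return the mean of the samples. Without normalization the miR-709 signals of the 2 samples differed by 1.53. The table of processed values was not run as an alternative for log2 signal because its scale is unknown. No paired analysis was possible because there is a single group. Without its brightest blank spot, a choice made after seeing the data, the limit of replicate 1 would be 243.5 and not 303.2. Probes detected in both samples then rose to 64 with miR-15b and miR-214, and 6 neighbours of miR-690 passed in replicate 1, while the spots of miR-1937c, miR-1935 and miR-3473 did not.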
